A study of Homo sapiens with 6 samples.

Results

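Focal adhesions are the sites where a cell grips the matrix around it. Integrins span the membrane there, and adaptor proteins on the inner side couple them to actin filaments. Talin (TLN1) and the kindlins (FERMT1 and FERMT2) bind integrin tails and switch the receptors to their active form. Integrin-linked kinase (ILK), a PINCH protein (LIMS1) and parvin (PARVA) form a complex that links integrins to actin. Vinculin (VCL), paxillin (PXN) and zyxin (ZYX) join as the adhesion matures and bears force, and focal adhesion kinase (PTK2) signals from it. The transcripts of these 10 genes are described here in PC3, a line of human prostate cancer cells derived from a bone metastasis.

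The genes were read on 6 Affymetrix arrays, 3 labelled control and 3 labelled PSMA. All cells were PC3, grown in RPMI medium. By the labels, PSMA cells had received the pLNCX-PSMA plasmid, which carries PSMA (prostate-specific membrane antigen, encoded by FOLH1), while control cells had received the vector alone, and both were then selected with puromycin. Titles and genotype labels call the control cells wild type instead. The stated transfection settings were the same for all 6 arrays. FuGENE (2 µg) was the reagent, the DNA dose was 3 µg, transfection took 30 min and recovery lasted 72 h. Whether either line was a pool or a single clone was not given in the sources used here. Nor do the labels state that each replicate was its own culture, so p-values reflect the spread among these arrays alone, and that may be technical.

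Members were the probe sets annotated to 1 gene symbol among the 10. There were 18 such probe sets, of 19064 with 1 symbol and 22277 in all, and they covered 9 of the 10 genes, out of 11963 genes read by such probe sets. LIMS1 had none. Its signal was read only by 2 probe sets shared with its near-identical paralogs, which cannot be assigned to a gene and were not counted. Of the 18 probe sets, 14 exceeded the overall median value of the table (52.5) on 3 or more arrays and were tested, covering 8 genes. The 4 others, among them the only probe set of TLN1, were too dim. Probe sets whose names end in x_at can, by Affymetrix convention, also bind other transcripts.

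FOLH1 checks the labels, and its signal went against them. Its single-gene probe set read 60.5 ± 0.914 (SD, n = 3) on control-labelled arrays and 28.1 ± 3.80 on PSMA-labelled arrays. The 3 probe sets shared with FOLH1B had means of 163 to 481 on control-labelled arrays and of 8.03 to 12.5 on PSMA-labelled arrays. The latter lie under the 25th percentile of all values (13.0), where GCRMA values gather near a floor, so no fold is given for them. Every direction below therefore follows the labels as deposited: "higher" means higher on the PSMA-labelled arrays, where FOLH1 signal was lower. The epithelial markers KRT8, KRT18, KRT19, EPCAM and CDH1 all lay above the filter in both groups, with a summed intensity of 16514 to 17012 on control-labelled arrays and 13233 to 13716 on PSMA-labelled arrays. KRT8, KRT18, EPCAM and CDH1 were each called lower on PSMA-labelled arrays (limma adjusted p = 0.0041, 9.6e-05, 0.00023 and 0.0015), and KRT19 was not (0.157). The androgen-responsive markers KLK3, KLK2 and TMPRSS2 lay below the filter. Leucocyte markers were dim too, with 0 of 6 above the filter and sums of 91.1 to 101 and 105 to 107, as were fibroblast markers (1 of 7, COL1A1; 208 to 217 and 191 to 203) and endothelial markers (1 of 6, PECAM1; 127 to 152 and 159 to 172). LUM, a fibroblast marker, read 35.1 ± 7.04 and 6.26 ± 1.16, and KDR, an endothelial one, read 10.2 ± 0.333 and 29.9 ± 6.02. Both lay below the filter, each with 1 group mean under the 25th percentile. They are named because they differed most in their lists, and the other fibroblast and endothelial markers differed less. The 3'/5' ratio of GAPDH, a measure of RNA integrity, was 1.30 ± 0.0668 and 1.36 ± 0.0872, while a 28S rRNA control probe set (middle part) read 1498 ± 63.1 and 675 ± 4.29. The part of these differences in the results was not tested.

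On the PSMA-labelled arrays, FERMT2 was 2.86-fold to 3.50-fold higher, VCL 1.45-fold and PXN 1.22-fold higher, PARVA 1.58-fold lower on its brightest probe set, and ZYX 1.21-fold to 1.22-fold lower. FERMT1, ILK and PTK2 did not pass the test. In bulk RNA, a change in signal per cell and a change in the share of cells with the transcript cannot be told apart. By probe set, 5 of 14 were called higher, 3 lower and 6 not called (limma, adjusted p under 0.05 over all 11303 tested probe sets). Over the whole array 60.6% of probe sets were called, 28.2% higher and 32.4% lower. The number of focal adhesion calls was therefore near the background. The groups did not overlap on 10 of the 14, against 67.3% of all tested probe sets. Tested against a minimum fold of 1.5, 3 of the 14 passed, all of them FERMT2, beside 6.61% of all probe sets. By gene, 3 of 8 rose and 2 fell, while 63.6% of all 7035 tested genes were called, 30.1% higher and 33.5% lower. The gene count was thus near the background too. The median log2 difference of the 8 was 0.03 and the median size 0.28, beside -0.01 and 0.22 over all tested genes.

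**Figure D1:**
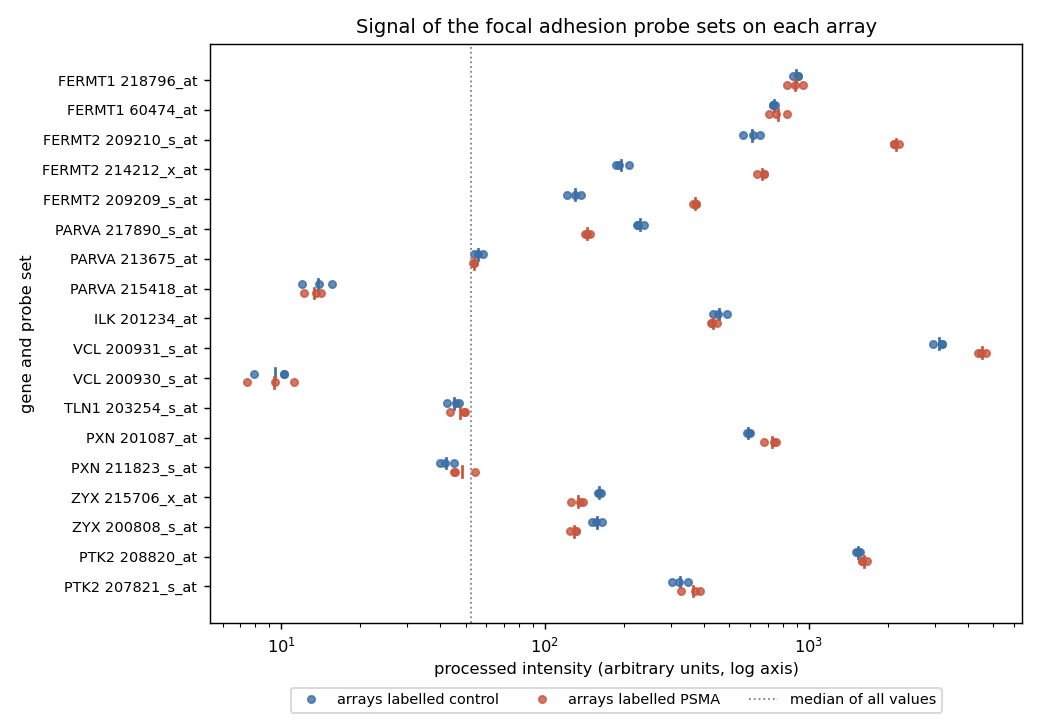
Processed intensity on each of the 6 arrays (log axis, arbitrary units) for the 18 probe sets, with a vertical tick at each group mean and a dotted line at the median of all values (52.5). The 3 FERMT2 probe sets and the bright VCL probe set lie clearly to the right on PSMA-labelled arrays, and the bright PARVA probe set to the left.

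The promoters of 3 genes that changed are shown because they stand for the largest rise (FERMT2), a further rise (VCL) and the member that fell on both of its probe sets (ZYX). Each line gives the 250 bases before the annotated start, 5′ to 3′, from the RefSeq promoter table of GRCh38.p14. Windows of 7 of the genes were read from it, those of FERMT2, ILK, LIMS1, VCL, TLN1, PXN and ZYX. Capitals mark GGGCGG, the core of the GC box bound by SP1-type factors, on either strand in FERMT2 and ZYX, and GGAATG, the core bound by TEAD factors, in VCL.
FERMT2 (chr14:52951051-52951300, minus strand): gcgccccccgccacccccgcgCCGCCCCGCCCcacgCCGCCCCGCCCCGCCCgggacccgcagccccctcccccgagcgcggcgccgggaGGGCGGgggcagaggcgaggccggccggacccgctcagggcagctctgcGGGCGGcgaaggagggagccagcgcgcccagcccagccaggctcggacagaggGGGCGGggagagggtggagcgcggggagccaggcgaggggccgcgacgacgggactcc
VCL (chr10:73997866-73998115, plus strand): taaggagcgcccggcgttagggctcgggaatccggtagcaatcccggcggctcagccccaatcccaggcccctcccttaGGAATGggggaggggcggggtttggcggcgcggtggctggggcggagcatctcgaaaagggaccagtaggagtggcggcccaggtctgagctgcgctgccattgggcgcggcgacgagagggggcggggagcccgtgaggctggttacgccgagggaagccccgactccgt
ZYX (chr7:143381095-143381344, plus strand): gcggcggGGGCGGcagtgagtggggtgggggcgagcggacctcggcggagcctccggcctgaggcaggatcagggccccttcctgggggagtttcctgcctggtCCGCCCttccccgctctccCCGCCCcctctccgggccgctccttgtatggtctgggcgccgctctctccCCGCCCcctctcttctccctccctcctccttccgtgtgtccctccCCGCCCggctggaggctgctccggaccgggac
The FERMT2 window held 8 matches to GGGCGG, counting both strands and overlapping copies, and was 84.4% G or C. ZYX held 5 at 74.8%, and VCL 3 at 70.4%. Of all 35116 windows of this length in the table, 42.6% held GGGCGG, as did 7 of the 11 windows of the 7 genes. GGAATG was found in 2 of the 11, in VCL at -171 to -166 from the start and in the second of the PXN windows, against 11.9% of all windows. In VCL it overlapped no copy of GGGCGG. The CArG box, bound by serum response factor, was found in 0 of the 11 and in 1.16% of all windows. These are matches of letters only, and no binding was measured in this series.

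The kindlins are paralogs that both bind integrin tails, and their probe sets gave different readings. FERMT2, which encodes kindlin-2, the widely expressed form, was measured by 3 probe sets. The brightest read 615, 651 and 565 on control-labelled arrays and 2187, 2109 and 2102 on PSMA-labelled arrays. The groups did not overlap, and every PSMA-labelled array lay far above every control-labelled one. The log2 difference was 1.81 (SE 0.06, limma adjusted p = 1.3e-07), which ranked 123 by size among 11303 probe sets. The x_at probe set read 208, 187 and 190 on control-labelled arrays against 678, 634 and 676, and the dimmest 137, 130 and 122 against 374, 365 and 372. All 3 were higher on every PSMA-labelled array, with log2 differences of 1.77 and 1.52 on the x_at and the dimmest probe set (limma adjusted p = 1.3e-07 and 1.8e-07).

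FERMT1 encodes kindlin-1, the form typical of epithelial cells, and both of its probe sets were bright. The brighter read 907, 872 and 910 on control-labelled arrays and 827, 886 and 952 on PSMA-labelled arrays. The groups overlapped, and the PSMA-labelled arrays were spread more widely (SD 63.0 against 21.2). The log2 difference was -0.02, with a 95% interval of -0.15 to 0.12 (limma adjusted p = 0.839). The second probe set, at 732, 747 and 732 against 707, 752 and 826, gave 0.05, with an interval of -0.09 to 0.18. These intervals reflect only the spread among these arrays, on which kindlin-2 signal rose. Within each array, the log2 ratio of the FERMT2 to the FERMT1 probe set went from -0.56 ± 0.13 (SD, n = 3) to 1.27 ± 0.13, a shift of 1.82. In an exact two-sided permutation test the p was 0.10, the smallest that 3 arrays against 3 can give, and 0.10 after adjustment over the 2 pairs compared. The pair was chosen with earlier results known.

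**Figure D2:**
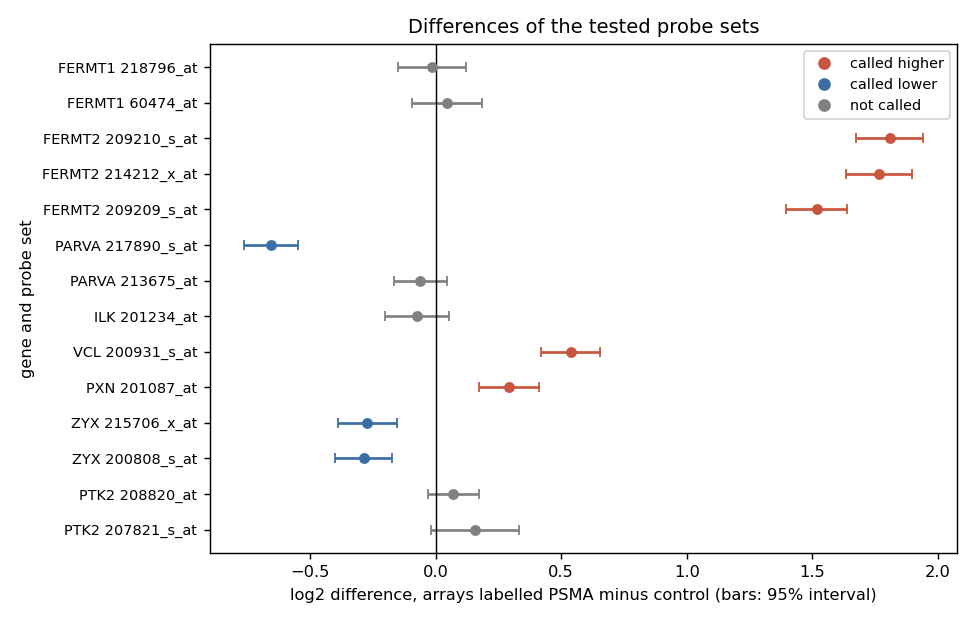
Log2 difference (PSMA-labelled arrays minus control) of each of the 14 tested probe sets, with 95% intervals from limma. FERMT2 stands alone beyond 1.5, the 2 FERMT1 intervals span 0, and only 1 of the 2 tested PARVA probe sets lies below 0 with its whole interval.

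The complex of ILK, PINCH and parvin depends on all its partners, since each is unstable without the others at the protein level. A change in transcript signal was called for PARVA and not for ILK. ILK, a pseudokinase that scaffolds the complex, read 451, 435 and 489 on control-labelled arrays and 428, 450 and 426 on PSMA-labelled arrays. The groups overlapped, and the log2 difference was -0.07 (95% interval -0.20 to 0.05, limma adjusted p = 0.278). PARVA encodes alpha-parvin, which binds ILK and actin. Its brightest probe set read 238, 222 and 225 on control-labelled arrays and 141, 144 and 149 on PSMA-labelled arrays, with no overlap. It fell by 0.66 on the log2 scale (SE 0.05, limma adjusted p = 8.3e-06).

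No such fall was called on the other PARVA probe sets. The second, which sat just above the filter, read 58.3, 53.9 and 55.6 against 53.9, 53.3 and 53.6, a log2 difference of -0.06 (95% interval -0.17 to 0.04, limma adjusted p = 0.278). The third, below the filter, read 12.1 to 15.6 against 12.2 to 14.2 and was not tested. The fall of PARVA thus rests on 1 probe set. Against ILK within each array, its log2 ratio went from -1.003 ± 0.10 (SD, n = 3) to -1.59 ± 0.06, a shift of -0.58 (exact two-sided permutation p = 0.10, also 0.10 adjusted over 2 pairs). With the mean of all 3 PARVA probe sets, the shift was -0.18. LIMS1 could not be set against either partner. The probe set shared by LIMS1 and LIMS4 read 591, 601 and 605 against 584, 573 and 568 (log2 difference -0.06, limma adjusted p = 0.243). The one shared by LIMS1, LIMS3 and LIMS4 read 780, 775 and 712 against 633, 603 and 669 (-0.25, limma adjusted p = 0.0056). RSU1, which binds PINCH in this complex, fell by 0.27, PARVB, the parvin paralog, did not pass (log2 difference -0.01), and ILKAP, a phosphatase that acts on ILK signalling, rose by 0.60 (limma, adjusted over 7035 genes).

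Vinculin binds talin and actin and strengthens the adhesion under load. Its bright probe set read 3208, 3187 and 2947 on control-labelled arrays and 4391, 4494 and 4671 on PSMA-labelled arrays. The lowest PSMA-labelled array lay well above the highest control-labelled one, and the log2 difference was 0.54 (SE 0.05, limma adjusted p = 4.2e-05). The second VCL probe set was dim throughout, at 7.91 to 10.2 and 7.41 to 11.2, and was not tested. Talin, vinculin's partner, was read by 1 probe set at 42.7, 47.1 and 46.0 against 43.6, 49.2 and 49.9. Those values overlap and lie under the filter on all 6 arrays, so no change in TLN1 was tested.

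Paxillin is a docking platform for kinases and for vinculin. Its bright probe set read 591, 581 and 599 on control-labelled arrays and 679, 752 and 739 on PSMA-labelled arrays. The groups did not overlap, and the log2 difference was 0.29 (SE 0.05, limma adjusted p = 0.0014), a small change of 1.22-fold. The dim PXN probe set read 41.7, 40.0 and 45.1 against 54.1, 45.7 and 45.3, above the median of all values on 1 array, and was not tested. Paxillin's 2 relatives changed in opposite directions. TGFB1I1, which encodes Hic-5, rose from 124 ± 8.02 to 297 ± 13.8 (SD, n = 3), and LPXN, which encodes leupaxin, fell from 599 ± 19.9 to 307 ± 15.6 (limma adjusted p = 5.9e-07 and 1.1e-06 over 7035 genes).

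Zyxin marks mature adhesions and recruits actin-polymerising factors. Its x_at probe set read 159, 161 and 163 on control-labelled arrays and 125, 139 and 136 on PSMA-labelled arrays. The other read 151, 165 and 156 against 125, 131 and 131. Neither showed overlap, and they fell by nearly the same amount, 0.27 and 0.29 on the log2 scale (limma adjusted p = 0.0019 and 0.0012). Of the zyxin relatives, TRIP6 rose by 0.77, while LPP did not pass (log2 difference 0.05). TRIP6 read 38.7, 41.1 and 45.6 on control-labelled arrays, all under the filter, and 65.8, 72.0 and 75.7 on PSMA-labelled arrays. It was thus tested only through its signal on the PSMA-labelled arrays.

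Focal adhesion kinase phosphorylates paxillin and starts signals that govern spreading and migration. The brighter PTK2 probe set read 1566, 1538 and 1508 on control-labelled arrays and 1593, 1587 and 1665 on PSMA-labelled arrays. Although all 3 PSMA-labelled arrays lay above the others, the log2 difference was only 0.07 (95% interval -0.03 to 0.17) and did not pass (limma adjusted p = 0.192). The second read 350, 302 and 323 against 329, 372 and 387, with overlap, and gave 0.16 (95% interval -0.02 to 0.33, limma adjusted p = 0.106). Without PSMA replicate 4 it was 0.22 and passed (limma adjusted p = 0.0304), which took the count of called probe sets from 8 to 9.

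The wider adhesion machinery was read from 4 lists, each gene by its brightest probe set. Of their genes, 28 had several tested probe sets, and 0 of these were called in both directions. Several had both called and uncalled probe sets, so the counts depend on the choice of the brightest. DIAPH1 ranged from -0.26 (called) to 0.13 (not called), and PTPN11, counted as not passing, had 2 of 3 called higher. Of all 7035 tested genes 63.6% were called, 30.1% higher and 33.5% lower. Among 19 other adaptors, 9 rose, 5 fell and 5 did not pass, with a median log2 difference of 0.12. TNS3, a tensin that binds integrin tails and actin, rose from 764 ± 18.9 to 1950 ± 70.1 (SD, n = 3), and TGFB1I1 rose by 1.27. LPXN fell by 0.96 and NEDD9, a docking protein of the BCAR1 family, fell by 0.47. Of the 19, TNS3 and TGFB1I1 alone changed by 2-fold or more.

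Of 19 tested genes that join adhesions to actin, 6 rose, 4 fell and 9 did not pass, with a median of 0.02. ENAH, an actin-elongating partner of zyxin, rose from 801 ± 42.9 to 1455 ± 63.6 (SD, n = 3), and CSRP1, a LIM protein that binds zyxin and alpha-actinin, rose by 0.75. ABLIM1 and TPM4, which bind actin filaments, each fell by 0.42 on their brightest probe sets. Their other tested probe sets were also called lower, with log2 differences of -0.23 and -0.80. The alpha-actinins ACTN1 and ACTN4, which cross-link actin next to vinculin, rose by 0.57 and 0.30.

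Of 29 tested signalling genes, among them kinases, phosphatases, exchange factors, GTPases and proteases, 12 rose, 5 fell and 12 did not pass (median 0.11). ARHGEF7, an exchange factor that activates RAC1 and CDC42, rose from 122 ± 3.26 to 222 ± 5.46 (SD, n = 3). SRC, the kinase that partners focal adhesion kinase, rose by 0.78, while its family member FYN fell by 0.40 and RB1CC1, an inhibitor of focal adhesion kinase, fell by 0.61. CAPN2, a protease that cleaves talin during adhesion turnover, rose by 0.77.

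Integrin subunits, the receptors to which kindlins and talin bind, gave 10 tested genes, of which 7 rose and 1 fell (median 0.24). ITGB2 and ITGB4 rose by 0.96 and 0.81, and ITGAV fell by 0.74. ITGB1, the common beta chain, did not pass (log2 difference -0.11, limma adjusted p = 0.0517). Over the 4 lists 49 of 77 genes were called (63.6%, as over all genes), 34 higher and 15 lower.

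**Figure D3:**
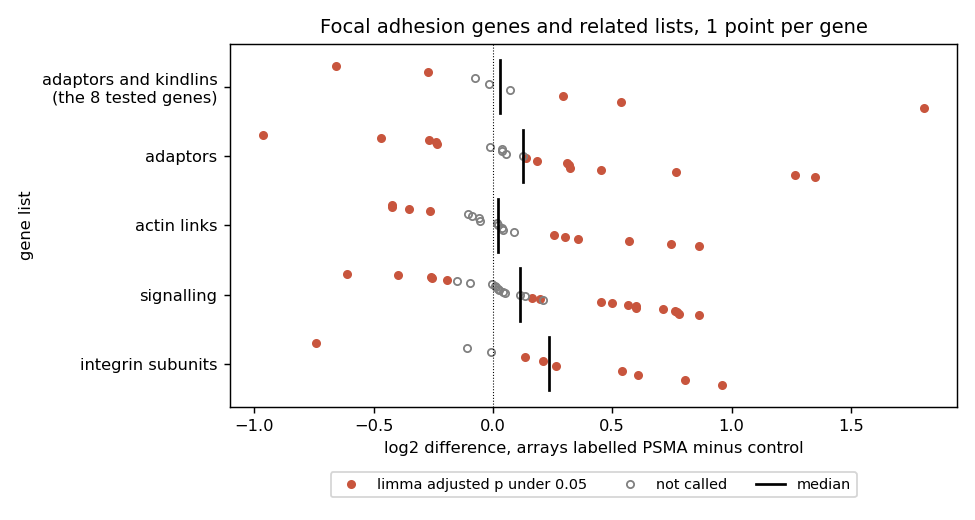
Log2 difference (PSMA-labelled arrays minus control) of each tested gene among the adaptors and kindlins and in the 4 related lists, with filled points past the limma threshold and a black bar at each median. Each list has genes on both sides of 0, and FERMT2, at 1.81, is farther right than any gene of the other lists.

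FERMT2, VCL, PXN, PARVA, ZYX and ILK sat among chromosomal neighbours whose median had the same sign, while FERMT1 and PTK2 did not. For each gene, the 5 tested genes on either side in the RefSeq order of GRCh38.p14 were read. Over all 7035 tested genes 63.6% were called, 30.1% higher and 33.5% lower, against which these counts are to be read. Around FERMT2 on chromosome 14, 9 of 10 rose and 1 fell, with a median log2 difference of 0.50. Before it in order came TMX1 (0.39), RTRAF (0.91), PTGER2 (2.08), ERO1A (1.02) and PSMC6 (0.61), and after it BMP4 (-0.23), CDKN3 (0.17), CNIH1 (0.24), GMFB (0.29) and CGRRF1 (0.74). Of these 10, PTGER2, which encodes a prostaglandin E2 receptor, alone exceeded FERMT2. Around VCL on chromosome 10, 9 of 10 rose (median 0.37), and around PXN on chromosome 12, 6 rose and 0 fell (0.17). Around PARVA on chromosome 11, 8 of 10 fell (-0.29), and around ZYX on chromosome 7, 8 fell (-0.63), so that ZYX fell less than the median of its neighbours.

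Neighbours of the members that did not pass also had medians away from 0. All 10 neighbours of ILK on chromosome 11 fell, with a median of -0.55 beside -0.07 for ILK. Of the neighbours of FERMT1 on chromosome 20, 8 rose and 2 fell (0.40), beside -0.02 for FERMT1. Those of PTK2 on chromosome 8 had 6 lower and 0 higher (-0.22), beside 0.07. The 2 genes without a tested probe set, LIMS1 on chromosome 2 and TLN1 on chromosome 9, each had 2 neighbours higher, 5 lower and 3 not called. The number called around them was near the share over all tested genes (63.6%).

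**Figure D4:**
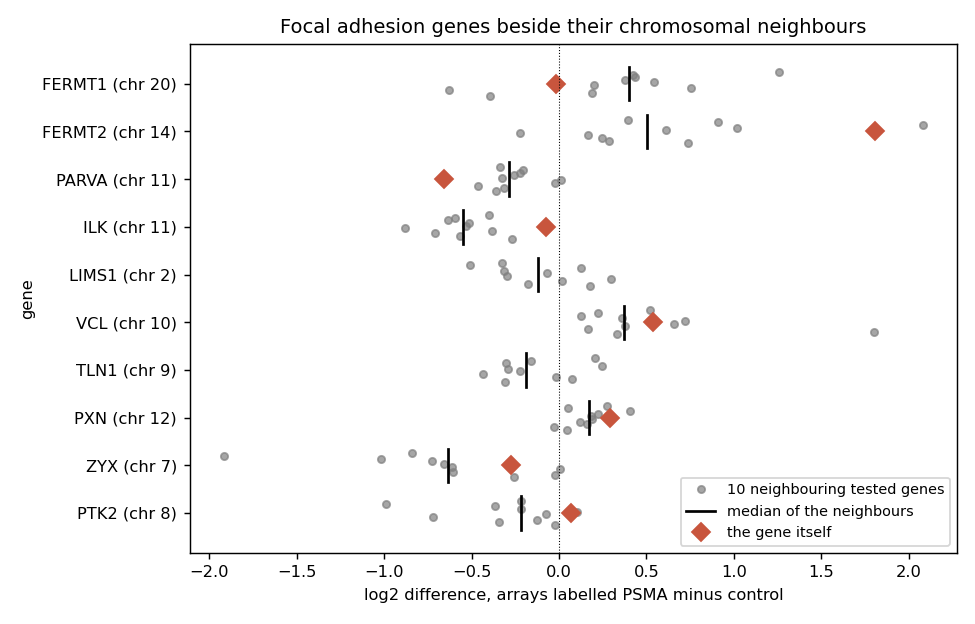
Log2 difference (PSMA-labelled arrays minus control) of each gene (diamond) beside its 10 nearest tested genes in chromosomal order (points, with a bar at their median). FERMT2, VCL, PXN, PARVA, ZYX and ILK lie on the same side of 0 as their neighbours' medians, while FERMT1 and PTK2 do not. ILK, at -0.07, lies to the right of all 10 of its neighbours.

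By profile, the genes most like FERMT2 over the 6 arrays were KCNMA1, TSC22D1 and PTN, found by the root mean square distance between log2 values centred on each gene's mean (0.04, 0.05 and 0.06). KCNMA1, a calcium-activated potassium channel gene and one of the neighbours of VCL, read 351, 367 and 314 on control-labelled arrays and 1178, 1187 and 1229 on PSMA-labelled arrays. TSC22D1, a transcriptional regulator, went from 954 ± 29.7 to 3386 ± 124 (SD, n = 3), and PTN, the secreted growth factor pleiotrophin, from 32.0 ± 3.38 to 113 ± 3.61. Their log2 differences were 1.80, 1.83 and 1.82, close to the 1.81 of FERMT2, and with 2 groups of arrays such likeness is mainly a likeness of that difference. PTN lay under the filter on every control-labelled array and was thus tested only through its signal on the PSMA-labelled arrays.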

How the data were processed

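The deposited table holds 1 processed intensity for each probe set on each array. According to the submitters' processing notes the authors used GCRMA, which removes background using the base composition of probes, normalizes the arrays and summarises each probe set. The version, the scale and later steps are not given in the sources used here. Because values were positive with a median of 51.7 to 52.9 per array, they were taken as linear intensities in arbitrary units and log2-transformed here with no pseudocount. With GCRMA, dim probe sets gather near a floor. Precision is limited by the number of arrays, 3 in each group.

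Probe sets were named through the platform annotation. The 62 control probe sets and those that did not exceed the overall median value (52.5) on 3 or more arrays were left out, which left 11303 probe sets and 7035 genes, each gene standing by its brightest single-gene probe set. The fit used limma 3.58.1 (lmFit, then eBayes; R 4.3.3), two-sided, with Benjamini-Hochberg adjustment over all tested probe sets or genes and a threshold of 0.05. Python 3.11.15 and matplotlib 3.10.9 were used for sequences and plots. The fit was tested on simulated data in which few probe sets changed, each by more than the median size among called probe sets here (0.35). It therefore does not bear on differences as small as those of PXN and ZYX. The members, lists, pairs, naming rule and alternatives were chosen with earlier results of these data known. The rule named all members, FOLH1, the 2 largest rises and 2 largest falls past the threshold in each list, the 3 genes closest in profile to the member that differed most, and that member's neighbours. Other genes named were chosen after their values were seen. The pairs with LIMS1 were not run because it had no single-gene probe set. FERMT1 and PARVA had no entry among the promoters. PTK2 was left out of the promoter reading by choice, so the motif counts do not cover it.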

Additional observations from a re-analysis of the deposited data

How the results depend on the processing

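No paired analysis was possible because the groups share no replicate numbers (1 to 3 and 4 to 6). The 5 calls among the 8 tested genes (3 higher, 2 lower) numbered 5 under each alternative: no filter or a stricter one, quantile normalization, median centring, a floor at the 25th percentile (13.0), a pseudocount of 16, a variance trend with robust prior, the mean of a gene's probe sets, and leaving out each array. By probe set the count was 8, 8 to 9 with an array left out, and 3 against a minimum fold of 1.5, where the count over all probe sets went from 6846 to 747. Leaving out an array gave 6078 to 6822 over all probe sets. The 49 calls in the related lists ranged from 46 to 54 over all alternatives, adaptors from 12 to 16 and integrin subunits from 7 to 9. Integrin subunits called lower went from 1 to 2 under several alternatives, such as median centring. With the stricter filter, adaptors called higher went from 9 to 8. The direction of the FERMT1 probe sets, neither called, reversed to 0.0042 (the first) under quantile normalization, and with an array left out they ranged from -0.0665 to 0.0358 and from -0.0150 to 0.0972, turning without PSMA replicate 4 for the first and without PSMA replicate 6 for the second. Over all alternatives the brightest FERMT2 probe set ranged from 1.75 to 1.86, VCL from 0.50 to 0.56 and the brightest PARVA probe set from -0.68 to -0.60. The 4 dim probe sets, and TLN1 with them, are limited by signal near background.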
